A study of Mus musculus with 6 samples.

Results

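The renin-angiotensin system was described here by 9 core genes out of the 55573 genes listed for inguinal fat. The 9 were chosen by their symbols, with the difference between the genotypes in these data already known: *Ren1*, *Agt*, *Ace*, *Agtr1a*, *Agtr1b*, *Agtr2*, *Atp6ap2*, *Mas1* and *Lnpep*. Their genotype differences are therefore given as a description, and no p-value is given for them. All 9 were found in the annotation, each had at least 1 read, and 6 had enough reads to be kept in the genome-wide fit. *Agtr1b*, *Agtr2* and *Mas1* did not.

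RNA-seq was performed on inguinal fat, a subcutaneous white depot, from 3 mutant and 3 Wt male C57BL/6NTac mice at 3 months of age, on regular chow and without treatment. Mutant mice carried the K283Q and K288R changes in the thyroid hormone receptor THRA as a homozygous, global knock-in made by cassette exchange in embryonic stem cells of this strain. Because the mutation was present in every tissue from development on, a direct effect in fat cannot be told apart from an effect through other organs. Wt controls were bred in house on the same background, and mice that share a number are different animals.

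Renin is an aspartyl protease, released mainly by the juxtaglomerular cells of the kidney, that cleaves angiotensinogen to angiotensin I. Angiotensin converting enzyme then forms angiotensin II, which acts through type 1 and type 2 receptors and raises blood pressure and aldosterone. Liver is the main source of circulating angiotensinogen, and fat is known to make its own. Laboratory strains of the C57BL/6 background carry a single renin gene, *Ren1*.

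Values are normalized CPM, that is, the reads on a gene relative to the scaled library size of each mouse as set by the authors. Each mouse had 19607423 to 24228381 reads on genes, so that 3 reads, the limit a count of 0 allows, correspond to 0.126 to 0.157 normalized CPM. This limit covers counting error only. All 7 adipocyte markers examined were detected, with a summed level of 12462 to 22503. The 5 skeletal muscle markers summed to 10199 to 23041, and the genotypes overlapped in both lists. Other muscle genes, given below beside *Ren1*, were higher in mutant mice, so this overlap does not show equal muscle content. A pair of libraries stood apart. In mutant mouse 1 the 5 lymphocyte markers summed to 2.88, against 237 to 555 in the other mice, and in Wt mouse 1 the 5 epithelial markers summed to 68.7, against 3.79 to 9.89. *Thra* itself was 147, 128 and 117 among Wt mice, against 170, 140 and 137 among mutant mice, with overlapping genotypes. A knock-in that replaces codons need not change the level, so *Thra* does not check the labels.

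*Ren1* (ENSMUSG00000070645, chr1:133350510-133360325, plus strand, GRCm38) encodes renin. Wt mice 1 and 2 had no *Ren1* read, and Wt mouse 3 had 15 reads, or 0.631 normalized CPM. Mutant mice 1, 2 and 3 had 524, 254 and 591 reads, or 27.5, 11.4 and 27.7 normalized CPM. Every mutant mouse was above every Wt mouse, and the lowest mutant mouse was 18.1 times the highest Wt mouse. The means were 22.2 ± 9.33 in mutant mice and 0.210 ± 0.364 in Wt (SD, n = 3), a ratio of 105 that rests on the reads of 1 Wt mouse. Against the value of 3 reads in the Wt mice without a read, the lowest mutant mouse was at least 78.1-fold higher. On the scale of log2(value + 0.5) the difference was 5.01 ± 0.46 (SE), and it lay between 4.80 and 5.42 when any 1 mouse was left out. Its size depends on the pseudocount, with 6.73 for 0.1 and 4.20 for 1. In bulk tissue, more cells with *Ren1* and more *Ren1* RNA in each cell cannot be told apart.

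*Agt* (ENSMUSG00000031980, chr8:124556534-124569706, minus strand) encodes angiotensinogen, the only known substrate of renin. Wt mice 1, 2 and 3 had 36.8, 25.4 and 19.1 normalized CPM of *Agt*. Mutant mice 1, 2 and 3 had 72.1, 71.2 and 44.6. All 3 mutant mice were above the highest Wt mouse, the closest of them by 1.21 times. The mean was 62.6 ± 15.6 in mutant mice and 27.1 ± 8.96 in Wt (SD, n = 3), a ratio of 2.31, and the difference on the log2(value + 0.5) scale was 1.21 ± 0.28 (SE). It lay between 0.99 and 1.45 when 1 mouse was left out. Within the mutant mice the genes were ordered differently, with *Ren1* lowest in mouse 2 and *Agt* lowest in mouse 3.

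Of the 6 genes in the fit, *Ren1* alone was past an FDR of 0.05 in the fit over all genes (limma), where 8.11% of the 16868 genes tested passed, 5.5% as higher and 2.61% as lower in mutant mice. Since this contrast was known when the genes were chosen, nothing is read from that count. The mutant values lay wholly above the Wt values for *Ren1* and *Agt*, which was the case for 14.9% of genes tested, while 15.7% lay wholly below. The median log2 difference of all genes tested was -0.05.

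**Figure D1:**
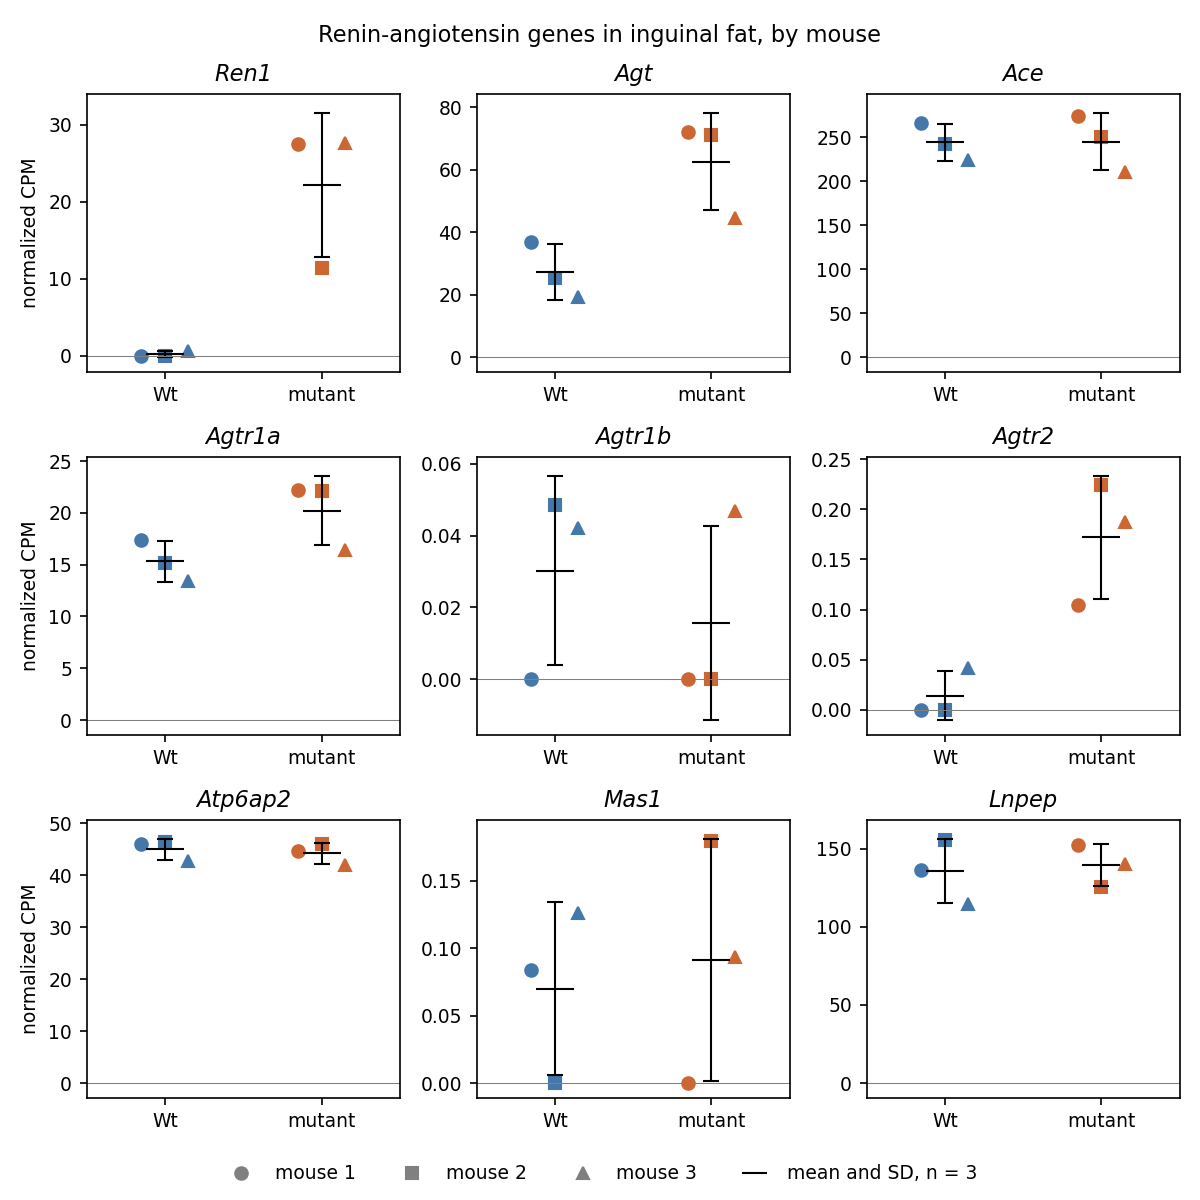
Normalized CPM (vertical axes, each from its own range and all showing 0) of the 9 renin-angiotensin genes in 3 Wt and 3 mutant mice (horizontal axes). Symbols are mice, and black marks are the mean and SD (n = 3). *Ren1* (0 to 0.631 in Wt, 11.4 to 27.7 in mutant mice), *Agt* and *Agtr2* have no overlap between genotypes, and *Agtr2* lies at 5 reads or fewer in every mouse.

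The sequence around the start of transcription was examined in RefSeq promoters (GRCm38.p6), which run from 250 bases before to 50 bases after the start. Of the 9 genes, 8 had an entry (*Agtr1a* did not), with 9 promoters in all because *Ace* has starts for a long and a short transcript. The letters TATAAA, searched on the gene's strand, occurred in 3 of these 9 promoters and in 8.32% of the 32851 promoters searched. These 3 were *Ren1*, *Agt* and *Agtr1b*, and they are shown to compare the genes with the large genotype differences with a receptor gene that had few reads. The lines below run 5′ to 3′ from 40 to 11 bases before the RefSeq start, with TATAAA in capitals.
Ren1 (chr1:133350634-133350663, plus strand): tacatggtgtgTATAAAagaaggctcaggg
Agt (chr8:124569717-124569746, minus strand): accccttgagTATAAAtaagcctgcttggc
Agtr1b (chr3:20367188-20367217, minus strand): cctttgctgTATAAAttgtagctgtctccg

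The match began 29 bases before the start in *Ren1*, 30 in *Agt* and 31 in *Agtr1b*, the distance known for a TATA box. GENCODE places the first base of *Ren1* 164 bases farther upstream than RefSeq. The full cyclic AMP response element, TGACGTCA on either strand, was in none of the 9 promoters and in 1.79% of all. Its shorter form TGACG, which the full element contains, was in those of *Atp6ap2* and *Lnpep* and in 20.8% of all. The nuclear receptor half-site AGGTCA was in 1 of the *Ace* promoters and in 16.3% of all. A match is a description of these windows only.

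*Ace* (ENSMUSG00000020681, chr11:105967945-105989964, plus strand) encodes the converting enzyme, a protease of the endothelial surface. It was 266, 242 and 224 normalized CPM among Wt mice, against 274, 250 and 210 in mutant mice. The genotypes overlapped, and the means of 244 ± 20.7 and 245 ± 32.6 (SD, n = 3) had a ratio of 0.999 in the fit, with a 95% interval of 0.809 to 1.23. Its exons share 295 bases with *Gm11651* on the opposite strand, which was 97.0 times lower than *Ace*.

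*Lnpep* (ENSMUSG00000023845, chr17:17521410-17625050, minus strand) encodes the insulin-regulated aminopeptidase, which binds angiotensin IV and travels with the glucose transporter of fat cells. Wt mice had 137, 156 and 115 normalized CPM, and mutant mice had 152, 126 and 140. The genotypes overlapped, with a ratio of 1.03 from the fit (95% interval 0.825 to 1.29).

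*Atp6ap2* (ENSMUSG00000031007, chrX:12587801-12617049, plus strand) encodes the prorenin receptor, which is also an accessory protein of the vacuolar proton pump. It was the steadiest of the 6 genes in the fit, at 45.9, 46.3 and 42.7 normalized CPM among Wt mice, against 44.6, 46.0 and 42.0 in mutant mice. The ratio was 0.983, with a 95% interval of 0.864 to 1.12, and the SD was 4.39% of the mean in Wt and 4.57% in mutant mice.

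*Agtr1a* (ENSMUSG00000049115, chr13:30336441-30382867, plus strand) encodes the main type 1 receptor of angiotensin II in rodents. It was 17.3, 15.1 and 13.5 normalized CPM among Wt mice, against 22.2, 22.1 and 16.4 in mutant mice. Mutant mice 1 and 2 were above all Wt mice, and mutant mouse 3 was below Wt mouse 1. The difference was 0.38 ± 0.16 on the log2(value + 0.5) scale (SE), and leaving out 1 mouse gave 0.30 to 0.53.

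The other receptors were close to the limit of detection. *Agtr2* (ENSMUSG00000068122, chrX:21484544-21489164, plus strand), the type 2 receptor, which opposes many type 1 effects, had 0, 0 and 1 read among Wt mice, against 2, 5 and 4 reads in mutant mice. The genotypes did not overlap, and summed over mice and corrected for depth the ratio was 12, with an exact 95% counting interval of 1.74 to 515 that leaves out the spread between mice. *Mas1* (ENSMUSG00000068037, chr17:12841079-12868143, minus strand), the receptor of angiotensin 1-7, had 2, 0 and 3 reads among Wt mice, against 0, 4 and 2 in mutant mice, a ratio of 1.30 (0.332 to 5.404). *Agtr1b* (ENSMUSG00000054988, chr3:20314473-20367177, minus strand), the second type 1 receptor gene of rodents, had 0, 1 and 1 reads among Wt mice, against 0, 0 and 1 in mutant mice. No difference in *Mas1* or *Agtr1b* was detectable at this depth.

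Levels of different genes were compared per kilobase of exon. In Wt mice the order was *Ace* at 46.2 ± 3.91 normalized CPM per kilobase, *Atp6ap2* at 17.2 ± 0.754, *Agt* at 14.3 ± 4.74, *Lnpep* at 9.59 ± 1.46, *Agtr1a* at 5.50 ± 0.699 and *Ren1* at 0.127 ± 0.220 (SD, n = 3). *Ace* stood above all others. The ranges over mice overlapped between *Atp6ap2* and *Agt* and between *Agt* and *Lnpep*, and did not between *Lnpep* and *Agtr1a* or between *Agtr1a* and *Ren1*. *Ren1* overlapped with *Mas1*, *Mas1* with *Agtr1b* and *Agtr1b* with *Agtr2*, which all lay below 0.1 normalized CPM per kilobase.

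In mutant mice the order of the levels per kilobase was *Ace* at 46.3 ± 6.17, *Agt* at 33.1 ± 8.24, *Atp6ap2* at 16.9 ± 0.773, *Ren1* at 13.4 ± 5.63, *Lnpep* at 9.86 ± 0.943 and *Agtr1a* at 7.26 ± 1.19. *Agt* was thus distinct from both its neighbours. *Ren1* overlapped with *Atp6ap2* above it and with *Lnpep* below it, and *Agtr1a* was below *Lnpep* in every mouse. *Ren1* was higher per kilobase than 3.43% of the genes tested in Wt mice and than 81.0% in mutant mice, and *Agt* than 81.4% and 93.5%. These shares describe the same contrast and are no further test of it. *Ren1* was kept among the genes tested through its reads in mutant mice, which bears on its low share in Wt.

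**Figure D2:**
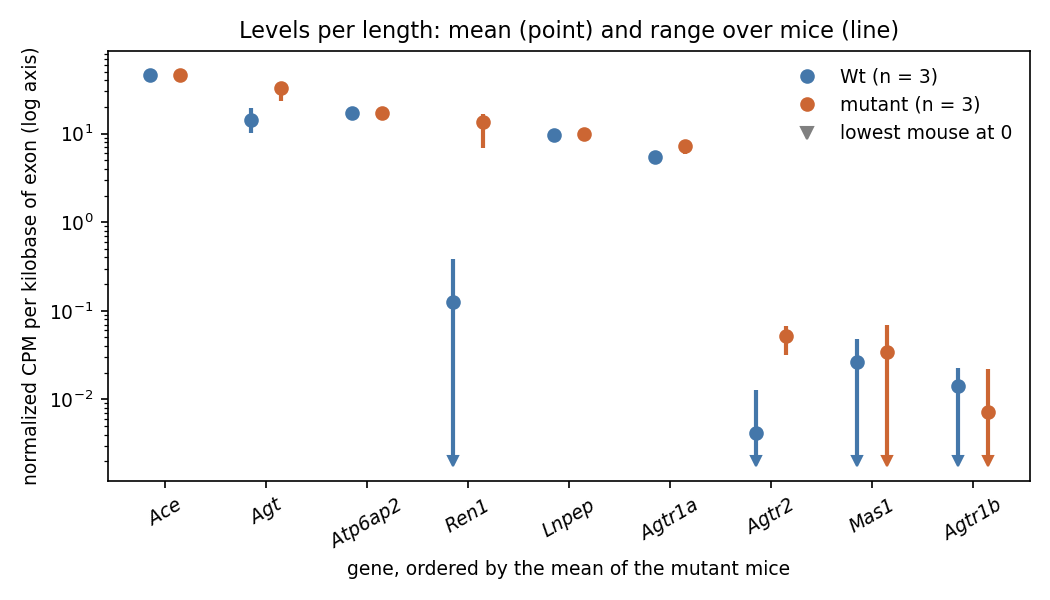
Normalized CPM per kilobase of merged exon (log axis) of the 9 genes, ordered by the mean of the mutant mice. Points are means, lines run from the lowest to the highest of 3 mice, and triangles mark a lowest mouse at 0. *Ren1* moved from rank 6 in Wt to rank 4 in mutant mice, and *Agtr2*, *Mas1* and *Agtr1b* stayed below 0.1 in both.

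Markers of the tissues that could carry *Ren1* into the samples were read beside it. The 5 kidney markers summed to 0.262 to 1.09 normalized CPM, with overlapping genotypes, and *Umod* and *Slc12a1*, which define the thick ascending limb, were at 0 in all mice. The 6 markers of testis and epididymis summed to 0.754 to 1.39 in Wt and 0.314 to 0.702 in mutant mice. Nearly all of this sum was *Insl3*, and the others had at most 1 read in a mouse. No list held markers of other white fat depots, so carry-over of such fat was not examined. Of the renin cell genes, *Akr1b7* had no read in Wt mice and at most 1 in a mutant mouse, and *Foxd1* was at most 0.180. *Gja5* and *Gja4*, of the same list, were detected in every mouse with overlapping genotypes. Their log2 differences were 0.36 ± 0.17 and -0.17 ± 0.21, and neither passed the FDR. *Gja5* shares exonic bases with *Gpr89* on the opposite strand, which was 2.35 times more abundant. None of the 7 smooth muscle and pericyte markers, the lineage from which renin cells arise, passed the FDR, and their summed level was 690 to 895 in Wt and 777 to 962 in mutant mice. The list was not uniform. *Acta2*, smooth muscle actin, lay above all Wt mice in mutant mice (log2 difference 0.80 ± 0.23, adjusted p = 0.0885, limma), the pericyte proteoglycan gene *Cspg4* lay below (-0.78 ± 0.20, adjusted p = 0.0681), and *Rgs5*, the most abundant, overlapped (0.26 ± 0.15).

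No gene passed the FDR in the lists of 5 progenitor, 6 endothelial, 5 macrophage, 5 mast cell, 5 epithelial, 5 skeletal muscle and 5 lymphocyte markers. Their most abundant genes had log2 differences of 0.38 ± 0.17 (*Pi16*) and 0.07 ± 0.13 (*Cd34*) for progenitors, 0.03 ± 0.11 (*Cdh5*) and -0.19 ± 0.16 (*Pecam1*) for endothelium, and -0.16 ± 0.11 (*Csf1r*) and 0.27 ± 0.12 (*Mrc1*) for macrophages. For mast cells they were 0.13 ± 0.12 (*Tpsb2*) and -0.27 ± 0.14 (*Kit*), and for skeletal muscle -0.12 ± 0.49 (*Myh4*) and 0.72 ± 0.39 (*Acta1*). For epithelium, high in Wt mouse 1, they were -1.54 ± 0.99 (*Krt18*) and -1.17 ± 0.74 (*Cdh1*), and for lymphocytes, near 0 in mutant mouse 1, -2.31 ± 1.76 (*Cd79a*). *Insl3*, the one testis marker tested, had -0.63 ± 0.22 (adjusted p = 0.148, limma). Mutant values lay wholly above Wt for 3 progenitor, 2 endothelial, 2 macrophage and 1 mast cell marker, beside 14.9% of all genes tested. They lay wholly below for 1 endothelial, 1 macrophage and 1 epithelial marker, beside 15.7%. Among these, *Kdr* (endothelium) had 0.42 ± 0.10, *Cd163* (macrophages) 0.57 ± 0.15 and *Cd68* (macrophages) -0.51 ± 0.15 (adjusted p = 0.0543, 0.0686 and 0.0988, limma).

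Most mesothelial markers were also higher in mutant mice. Mesothelium is the epithelial lining of the body cavities. Of 8 markers, 6 rose in mutant mice past an FDR of 0.05 (limma), among them *Upk3b*, a uroplakin (log2 difference 4.53 ± 0.51 SE, adjusted p = 0.00487), *Msln*, the surface protein mesothelin (3.49 ± 0.35, adjusted p = 0.00304), *Upk1b* (3.29 ± 0.22, adjusted p = 0.00125) and *Wt1*, the Wilms tumour transcription factor (2.38 ± 0.26, adjusted p = 0.00414). The other 2 rising markers were *Lrrn4* and *Bnc1*. As for *Ren1*, the size on the log2(value + 0.5) scale depends on the pseudocount where Wt values are near 0. The ratio of means was 47.3 for *Upk3b*, 26.1 for *Msln*, 62.7 for *Upk1b* and 78.1 for *Wt1*. It was 4.09 for *Lrrn4* and 18.8 for *Bnc1*. With either library that stood apart left out, 6 markers (without mutant mouse 1) or 7 (without Wt mouse 1) passed. With at least 10 reads required in every mouse, 2 of the 8 were tested and 1 passed, since most had fewer reads in Wt mice. This list, too, was made with earlier results known. *Upk3b*, *Upk1b*, *Msln*, *Wt1* and *Bnc1* had few or no reads in most Wt mice and entered the fit through the mutant mice. Their adjusted p-values and the count of 6 are therefore a description and no test. Of all genes tested, 5.5% were past the FDR as higher in mutant mice. *Muc16* had a difference of 1.80 and did not pass (adjusted p = 0.062, limma), and *Krt19*, a keratin also made by other epithelia, was 28.5 in Wt mouse 1 and 2.72 to 8.86 in the other mice. The summed level of the list was 4.81 to 32.8 in Wt and 37.7 to 77.2 in mutant mice, and without *Krt19* it was 2.09 to 4.80 and 33.8 to 68.3.

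*Upk3b* was 0.084, 0 and 1.09 normalized CPM among Wt mice, against 27.7, 11.4 and 16.6 in mutant mice. Among Wt mice it was highest in mouse 3, the only one with *Ren1* reads, and in both genes mutant mouse 2 was the lowest mutant mouse. The list was not uniform in this. *Upk1b*, *Msln* and *Lrrn4* were also highest in Wt mouse 3, but *Wt1* was highest in Wt mouse 2 and *Bnc1*, *Muc16* and *Krt19* in Wt mouse 1. Mutant mouse 2 was the lowest mutant mouse for all of these but *Bnc1*, which was lowest in mutant mouse 3. The ratio of *Ren1* to *Upk3b* was 0.991, 1.0 and 1.67 in the mutant mice, 0.577 in Wt mouse 3 and 0 in Wt mouse 1. Over the 8 markers the ratio of *Ren1* to the marker did not overlap between genotypes for 5 and overlapped for 3. Wt mice without a read of the marker gave no ratio. These ratios contain the known *Ren1* difference and are no further test of it. The part of mesothelial cells in the *Ren1* difference was not tested.

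**Figure D3:**
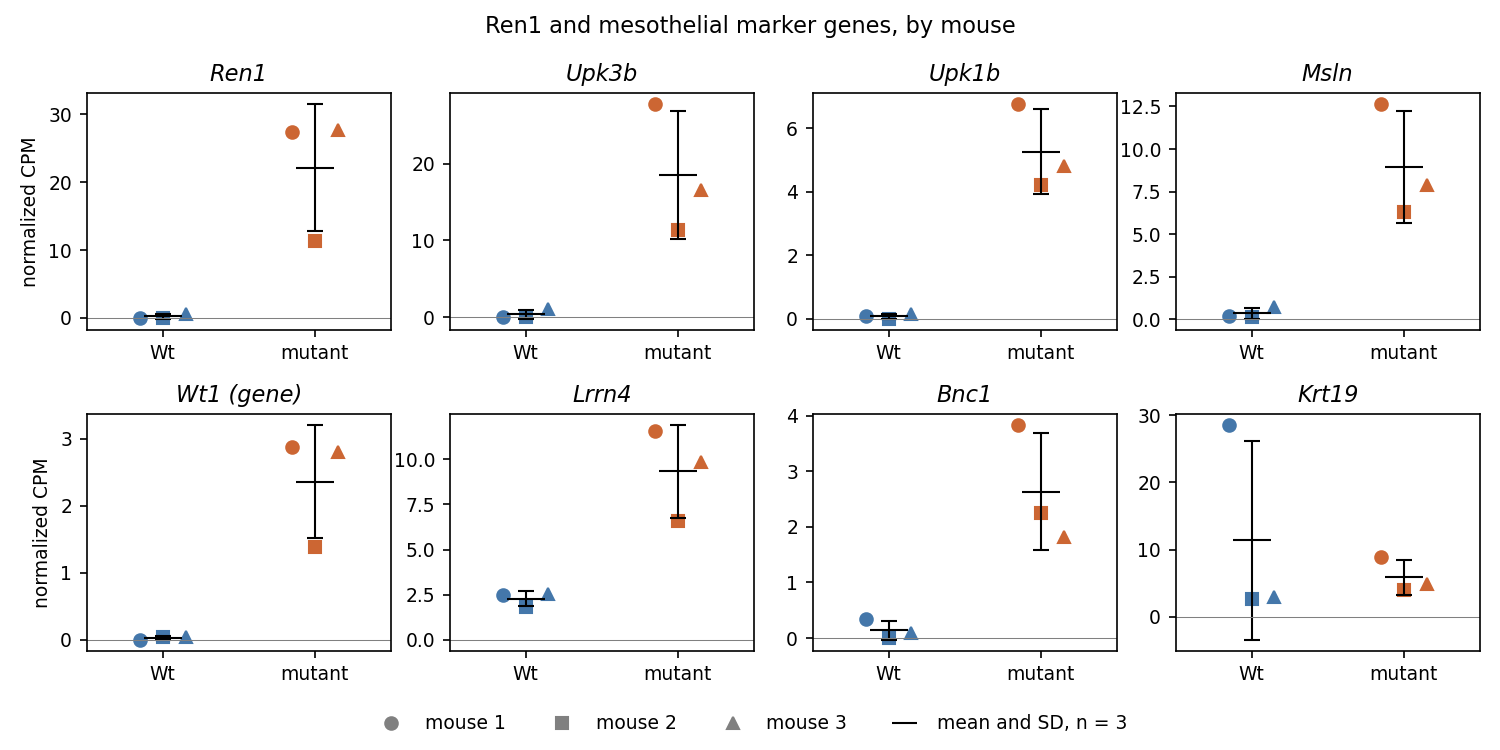
Normalized CPM (vertical axes, each with its own range) of *Ren1* and 7 of the 8 mesothelial markers in 3 Wt and 3 mutant mice. Symbols are mice and black marks the mean and SD (n = 3). Every mutant mouse lies above every Wt mouse except for *Krt19*, which is 28.5 in Wt mouse 1.

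*Agt* was read beside the markers of mature adipocytes, of which none of 7 passed the FDR. The most abundant, *Fabp4*, the fatty acid binding protein of adipocytes, was 5789 to 9575 in the 6 mice with overlapping genotypes, and the lipid droplet protein *Plin4* had a log2 difference of -0.82 ± 0.25 (adjusted p = 0.108, limma). The ratio of *Agt* to each of the 7 markers was higher in every mutant mouse than in every Wt mouse. On average it was 1.47 times higher for leptin (*Lep*) and up to 4.11 times for *Plin4*. The mean of *Lep* itself in mutant mice was 1.61 times that in Wt, and that of *Plin4* 0.568 times. As the *Agt* difference was known when the gene was chosen, these ratios largely repeat it and are no further test. For *Ace* beside 6 endothelial markers, the ratio was higher in mutant mice for 2, lower for 2 and overlapped for 2.

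The wider pathway was described by 7 lists with 76 other genes, of which 61 were tested. Of these, 4 rose in mutant mice at an FDR of 0.05 (limma) and none fell, which is 6.56% of those tested beside 8.11% of all genes. The median log2 difference was 0.08, beside -0.05 for all genes. Without Wt mouse 2, Wt mouse 3, mutant mouse 2 or mutant mouse 3 the count was 1, and without mutant mouse 1 it was 2. The lists were made with earlier results of these data known.

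*Kng2*, a kininogen gene whose product is the source of kinins, which are inactivated by the converting enzyme, was the gene of this set with the largest difference. It was 0.838, 0.486 and 0.631 normalized CPM among Wt mice, against 1.94, 1.93 and 1.68 in mutant mice, a log2 difference of 1.04 ± 0.17 (adjusted p = 0.0169, limma). These values rest on 20, 10 and 15 reads in Wt mice and 37, 43 and 36 in mutant mice. The size depends on the pseudocount, with 1.40 for 0.1 and 0.79 for 1. Of the 8 kallikrein-kinin genes listed, 3 were tested and *Kng2* was the one that passed. *Xpnpep2*, an aminopeptidase that degrades bradykinin, and *Bdkrb2*, the constitutive bradykinin receptor, did not pass (0.21 ± 0.16 and 0.13 ± 0.31). *Kng1*, which resembles *Kng2* in sequence so that reads may be split between them, had values of 0.047 to 0.419 in mutant mice and none in Wt, and was too low to test.

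The remaining 3 rising genes belong to the list of aldosterone synthesis and response, of which 8 of 12 genes were tested. They are 37.5% of those tested, beside 8.11% of all genes, in a list made with earlier results known. *Tsc22d3*, the leucine zipper protein GILZ, was 99.96, 108 and 93.5 among Wt mice, against 145, 151 and 157 in mutant mice (log2 difference 0.59 ± 0.08, adjusted p = 0.0102, limma). *Sgk1*, a kinase that raises sodium channel activity, was 42.6, 47.9 and 45.1 among Wt mice, against 70.3, 56.3 and 65.6 in mutant mice (0.49 ± 0.10, adjusted p = 0.0394). *Fkbp5*, a chaperone of steroid receptors, was 49.4, 50.9 and 52.2 among Wt mice, against 67.1, 64.0 and 62.7 in mutant mice (0.34 ± 0.07, adjusted p = 0.0352). With 1 mouse left out, *Fkbp5* never passed the FDR (adjusted p from 0.0788 to 0.130, limma) and *Sgk1* passed only without mutant mouse 2. *Tsc22d3* passed in each of these fits but that without mutant mouse 2. All 3 genes are known to respond to glucocorticoids as well as to mineralocorticoids. *Cyp11b2* and *Cyp11b1*, which make aldosterone and corticosterone in the adrenal cortex, were at 0 in every mouse. The mineralocorticoid receptor *Nr3c2* was 13.3 to 17.9 in the 6 mice. *Hsd11b1*, which regenerates active glucocorticoid, had a difference of 0.40 ± 0.17 (adjusted p = 0.223), and the clock gene *Per1* of -0.08 ± 0.11.

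In the other 5 lists no gene passed the FDR. Of 14 further enzymes of angiotensin peptides 13 were tested, with a median log2 difference of 0.06 and a range of -0.46 to 0.55. The most abundant were *Ctsa*, a lysosomal carboxypeptidase (-0.08 ± 0.10), and *Mme*, neprilysin (-0.03 ± 0.18). *Cma1* and *Cpa3*, the mast cell chymase and carboxypeptidase, had the values nearest to the threshold (0.46 ± 0.12, adjusted p = 0.0649, and 0.55 ± 0.15, adjusted p = 0.0828, limma). None of 5 general mast cell markers passed.

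The receptor partners, 5 tested of 6, had a median log2 difference of -0.03, with *Mtus1*, an interactor of the type 2 receptor, at 0.09 ± 0.15 and *Igf2r*, which also binds prorenin, at -0.15 ± 0.07. The genes of renin transcription and of renin cells, 10 tested of 12, had a median of -0.19, and their most abundant members, the coactivators *Ep300* and *Crebbp*, had -0.36 ± 0.15 and -0.32 ± 0.12 (adjusted p = 0.192 and 0.161, limma). Among 14 signal transducers of the type 1 receptor, all tested, the median was -0.10, and *Arrb1*, an arrestin that ends receptor signalling, and the G protein subunit *Gnaq* had -0.22 ± 0.08 and 0.08 ± 0.14. Among 10 genes known to be induced by angiotensin II, 8 were tested, with a median of 0.24. Of these, *Fn1*, fibronectin, and *Tgfb1*, a profibrotic cytokine, had 0.17 ± 0.17 and -0.61 ± 0.28, and *Ccn2*, a matricellular protein, was nearest to the threshold (0.89 ± 0.23, adjusted p = 0.0645, limma).

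**Figure D4:**
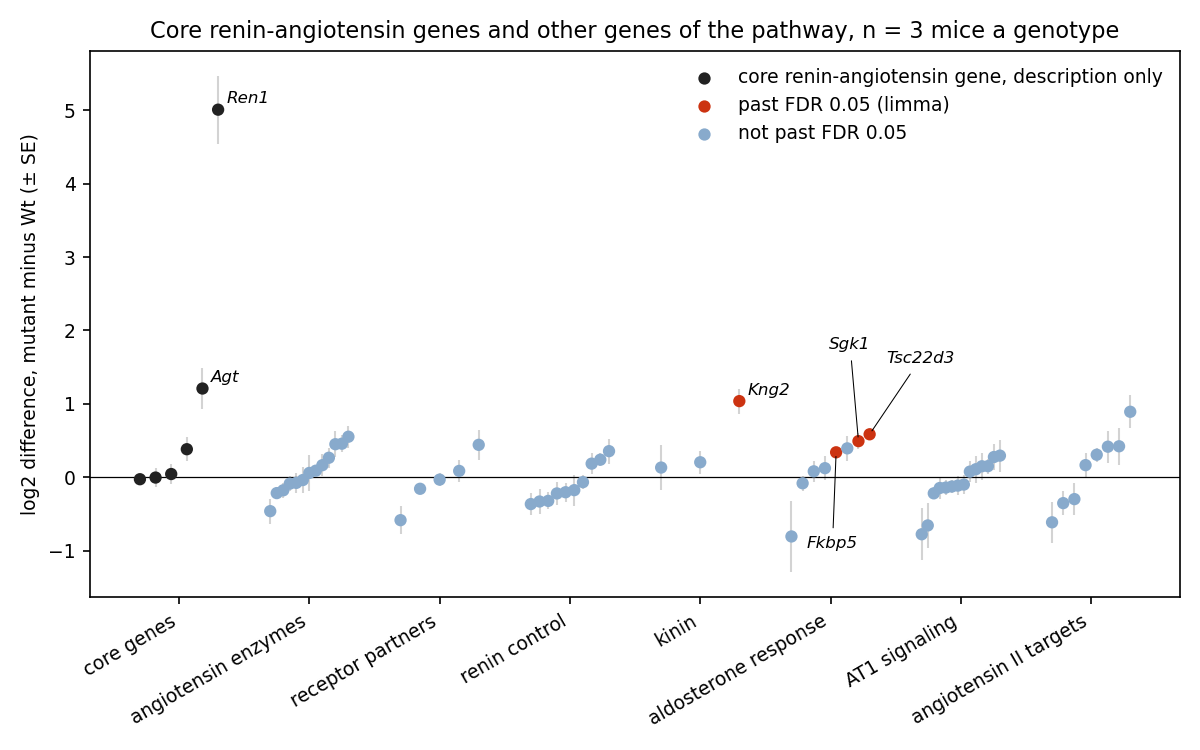
Log2 difference, mutant minus Wt, on the log2(value + 0.5) scale (vertical axis, bars are SE, n = 3 mice a genotype) of the 6 core genes in the fit and of 7 lists of other pathway genes (horizontal axis). Red points passed an FDR of 0.05 (limma): *Kng2*, *Tsc22d3*, *Sgk1* and *Fkbp5*. Black points are the core genes, shown as a description, with *Ren1* at 5.01 and *Agt* at 1.21.

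The genes whose pattern over the 6 mice was nearest to that of *Ren1* were ranked among 16862 genes. The distance was the root mean square difference of log2 values after each gene's mean was removed. *Ren1* was chosen with its genotype difference known, and that difference makes up most of its pattern. The nearest genes are therefore mainly others much higher in mutant mice, and the ranking is no test of a shared source or control. The nearest was *Igfn1*, an immunoglobulin-like gene of skeletal muscle, at 0.33, with 0.251, 0.438 and 2.86 normalized CPM among Wt mice, against 52.7, 18 and 47.2 in mutant mice. *Mss51*, a mitochondrial protein gene of muscle, followed at 0.35, *Upk3b* at 0.37 and *Pnoc*, prepronociceptin, at 0.58 after *Mhrt*. The other 6 of the 10 nearest, *Mhrt*, *Gm49540*, *Gm31251*, *Gm29015*, *Ube2c* and *Myhas*, share exonic bases with a gene on the opposite strand that was 6.03 to 56.7 times more abundant, in each case a skeletal muscle gene such as *Myh7*, *Mb* or *Tnnc2*. Whether counting used strand is not given in the sources used here, so reads of such pairs cannot be told apart. *Ren1*, *Igfn1*, *Mss51*, *Upk3b* and *Pnoc* have no exonic overlap of that kind.

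Distances to the genes nearest to *Agt* were smaller, but they are not scaled by the size of a gene's change. Here too the known genotype difference is part of the pattern, and the ranking is no test. The log2 difference was 1.21 for *Agt* and 5.01 for *Ren1*, so the distances are not compared between them. Nearest to *Agt* were *Folh1*, a folate hydrolase, at 0.10, and *Gsta3*, a glutathione transferase, at 0.12. *Gm5460* and *Hspd1-ps4* followed at 0.15 each and *Cldn22*, a claudin gene, at 0.15. *Folh1* was 10.01, 7.49 and 5.76 normalized CPM among Wt mice, against 21.3, 24.7 and 14.1 in mutant mice. *Gsta3* was 59.7, 42.2 and 39.8 among Wt mice, against 126, 115 and 78.4 in mutant mice. *Cldn22* overlaps *Wwc2*, 19.8 times more abundant, on the opposite strand, and *Hspd1-ps4* is a pseudogene whose reads may come from its parent gene.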

How the data were processed

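RNA-seq of inguinal fat from 3 Wt and 3 mutant mice was analysed, 1 library per mouse, grouped by the genotype in the labels. The submitters' processing notes name Bowtie2 2.1.0, RSEM 1.2.15, edgeR and mm10. The unit of the values the authors deposited is a normalized signal per gene, CPM with a scaling factor for each mouse. Whole reads were recovered, since 100.0% of values above 0 fell within 0.01 of a whole number of reads. Use of strand in counting is not given in the sources used here. Within each genotype no library was a copy of another, as the reads of each pair had a chi-square of 17.5 to 59.1 per degree of freedom.

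Genotypes were compared with limma 3.58.1 (R 4.3.3, with trend) on log2(value + 0.5). Adjusted p-values are Benjamini-Hochberg values over 16868 genes, after filterByExpr (edgeR 4.0.16) had removed genes with few reads. The p-values measure the spread between these mice, of which litter and cage are not given. The method was tested on simulated data. Members and gene lists were chosen with earlier results of these data known. The genes named are the 9 core genes, *Thra*, from each list up to 4 genes past the FDR and the 2 most abundant tested others, and the 10 and 5 genes nearest in pattern to *Ren1* and *Agt*. *Akr1b7*, *Foxd1*, *Cyp11b2*, *Cyp11b1*, *Nr3c2*, *Kng1*, *Cma1*, *Cpa3*, *Ccn2*, *Umod*, *Slc12a1*, *Cspg4*, *Dio2*, *Lep*, *Lrrn4* and *Bnc1* fall outside that rule and were added after their values were seen. The same holds for *Gja5*, *Gja4*, *Kdr*, *Cd163* and *Cd68*. The values of 2 genes counted in the lists are not reported here. Coordinates and exon lengths are from GENCODE M21 (GRCm38), in which 99.8% of the identifiers were found. An exact permutation test of 1 gene (two-sided) has a smallest p of 0.1 in this design.

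Alternatives were scaling by library size only or by DESeq2 1.42.0 size factors, pseudocounts of 0.1 and 1, no filter, at least 10 reads in every mouse, the Wald test of DESeq2, edgeR's quasi-likelihood test, leaving out each mouse and a replicate block. The longest coding transcript as the length was added after the data were examined. Python 3.11.15, pandas 2.3.3 and SciPy 1.17.1 were used for the other steps.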

Additional observations from a re-analysis of the deposited data

How the results depend on the processing

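*Agt*, *Ace*, *Agtr1a*, *Atp6ap2* and *Lnpep* moved by less than the spread between mice under other scalings, pseudocounts and when each mouse was left out. The log2 difference of *Ren1* was 6.73 with a pseudocount of 0.1 and 4.20 with 1, because its Wt values are near 0. The count of 4 other pathway genes past the FDR (6.56% of those tested, beside 8.11% of all genes) was 2 with no filter (2.74%, beside 4.14%), 2 with at least 10 reads in every mouse (3.33%, beside 4.09%) and 8 with the Wald test of DESeq2 (13.1%, beside 12.6%). It was 1 to 3 when 1 mouse was left out (1.61% to 4.84%, beside 3.14% to 6.03%). The cause of these changes was not tested. It was 4 with edgeR's quasi-likelihood test and under the other scalings and pseudocounts. Of 15 alternatives, *Tsc22d3* passed in 14, *Kng2* in 11, *Sgk1* in 8 and *Fkbp5* in 6, always as higher in mutant mice. The rank of *Ren1* per length was 6 in Wt and 4 in mutant mice with either length, but with the longest coding transcript its mutant range no longer overlapped that of *Atp6ap2*.

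Deviations from the genotype means of same-numbered mice correlated across genes by 0.69, 0.06 and 0.56. Same-numbered mice are different animals, and whether they shared a batch is not given and was not tested. The main fit left the numbers out. With the replicate block, 18 of the other pathway genes passed (29.5%, beside 24.1% of all genes), 10 of them higher in mutant mice. Depth limits *Agtr1b*, *Agtr2* and *Mas1*, with 5 reads or fewer in every mouse.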

Other observations

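The type that the deposited table gives each gene differs from the annotation for some of these genes. *Ace* and *Agtr2* are listed as lncRNA and *Lnpep* as a retained intron, while GENCODE M21 gives all 3 as protein-coding genes. Of 21980 genes that are protein-coding in GENCODE M21, 13436 (61.1%) are listed as such, 4614 as retained intron and 3082 as lncRNA. A selection of protein-coding genes by that column would therefore have lost 3 of the 9 renin-angiotensin genes. Expression values are not affected by the column.

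*Ucp1*, the uncoupling protein of brown and beige fat, was lower in mutant mice (15.5, 7.39 and 15.3 normalized CPM in Wt mice, 3.46, 3.23 and 3.51 in mutant mice; log2 difference -1.69 ± 0.29, adjusted p = 0.0187, limma). It was the only one of 4 tested brown and beige markers past the FDR, and *Cidea*, *Ppargc1a* and *Dio2* had -0.75 ± 0.29, 0.07 ± 0.21 and 0.25 ± 0.24.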
